A study of Mus musculus with 4 samples.

Results

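The genes described here are 38 genes of cell adhesion and the actin cytoskeleton, taken from the expression table by symbol. They comprise 12 integrin subunits, 2 membrane proteins that integrins bind on other cells (integrin counter-receptors), 7 cytoplasmic adaptors of integrin adhesions and 17 proteins that build, cut, bundle or anchor actin filaments. All 38 were among the 17013 genes with values. All 38 also passed the filter on low values, at least 0.5 CPM (reads normalised to library size) in at least 2 of the 4 libraries, which left 12470 genes for testing.

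Bone marrow-derived macrophages of WT mice were grown with M-CSF for 7 days and seeded on porous Transwell inserts. The fat control medium (Con) and the high-fat-containing medium (Fat), the middle and the top layer of freeze-thawed mouse abdominal fat, were added to the wells under the inserts. Both groups also received artificial necrotic bone fluid (aNBF, 10 µg/mL), made from freeze-thawed bone, and RNA was collected after 24 h. Poly(A) RNA was sequenced in 2 Con and 2 Fat libraries. Con is therefore a low-fat layer of the same fat preparation with aNBF, and no library of macrophages without either was analysed here. The labels do not say whether the 2 libraries of a group came from separate mice or cultures, so the p-values measure the spread between these libraries, which may be technical.

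Integrins are adhesion receptors made of an alpha and a beta chain. In macrophages the beta 2 integrins bind ICAM proteins and complement fragments, whereas alpha 5 and alpha v integrins bind fibronectin, vitronectin and the bridging proteins that coat dying cells. Talin and kindlin bind the beta chain's tail and switch the receptor on, and vinculin, paxillin and zyxin then couple it to actin. Macrophages assemble these proteins into podosomes, short-lived contacts with a core of branched actin made by WASP and the Arp2/3 complex and a surrounding ring of integrins and adaptors.

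The libraries held between 33573852 and 40785872 reads on genes. The macrophage genes Csf1r (919 TPM, normalised also to gene length), Cd68 (1464 TPM) and Lyz2 (50408 TPM) were abundant. The summed level of 7 macrophage markers was 32241 and 30118 CPM in the Con libraries and 24603 and 23274 CPM in the Fat libraries, and 3 of the 7 (Mertk, Fcgr1 and Aif1) were called lower in Fat. Of 8 adipocyte markers, 7 were at 3 reads or fewer in both Con libraries, and Adipoq was at 0 CPM in both and at 0.750 and 0.341 CPM in Fat. Platelet and megakaryocyte markers summed to 138 and 114 CPM in Con and 171 and 179 CPM in Fat, and 2 of the 4 tested were called higher, Pf4 and Ppbp. Summed levels of the other lists were 512 to 656 CPM for fibroblasts and mesothelium, 33.4 to 40.9 for endothelium, 323 to 378 for neutrophils, 15.7 to 20.7 for lymphocytes and 380 to 477 for osteoclasts. Of these, Dcn (fibroblast) and Vwf (endothelium) were called lower and Ocstamp (osteoclast) higher. Over all tested genes, 3.99% were called higher and 5.0% lower. Both Fat libraries were below both Con libraries for 6 of 7 macrophage markers. The same held for 4 of 5 tested fibroblast and mesothelial, 5 of 7 neutrophil and 4 of 5 lymphocyte markers, beside 26.2% of all tested genes. The part of these differences in the results was not tested, and in bulk RNA fewer cells of a type and less RNA per cell cannot be told apart.

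Of the 38 genes, 5 rose and 2 fell in Fat (limma on log2(CPM + 0.1), adjusted p under 0.05 over all tested genes), and 31 did not pass the test. The genes that rose were Itga5, Itgav, Vcam1, Vcl and Lcp1, and those that fell were Itgal and Icam1. The share called was 18.4%, against 9.0% of all tested genes, of which 3.99% were higher and 5.0% lower. The 38 genes were chosen with earlier results of these data known, so the share is a description and not a test. No member averaged below 8.88 CPM, and among 9760 genes averaging 5 CPM or more 9.5% were called. With the deposited TPM values 7 of the 38 were called higher and 1 lower, since Tln1 and Flna then passed and Itgal did not. Without limma's mean-variance trend none of the 7 was called, their adjusted p lying between 0.0831 and 0.154, and 9 members were higher and 5 lower at an unadjusted p under 0.05.

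The changes were modest. The largest was -0.69 on the log2 scale (Icam1), and 31 of the 38 log2 fold changes were smaller than 0.3 in size. The median over the 38 genes was 0.04, beside 0.01 over all tested genes. Of the 31 genes that were not called, 30 had a 95% confidence interval within 0.5 log2 units of 0, the exception being Itgb7. Both Fat libraries lay above both Con libraries for 15 genes, a pattern found in 29.4% of all tested genes, and below both for 11, a pattern found in 26.2%. For 12 genes the groups overlapped. With the trend, 12 genes were higher and 8 lower at an unadjusted p under 0.05, beside 11.8% higher and 12.4% lower of all tested genes. With 2 libraries per group, an exact permutation test of a single gene cannot give a p below 0.333, so the calls rest on the spread that limma pools over genes.

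**Figure D1:**
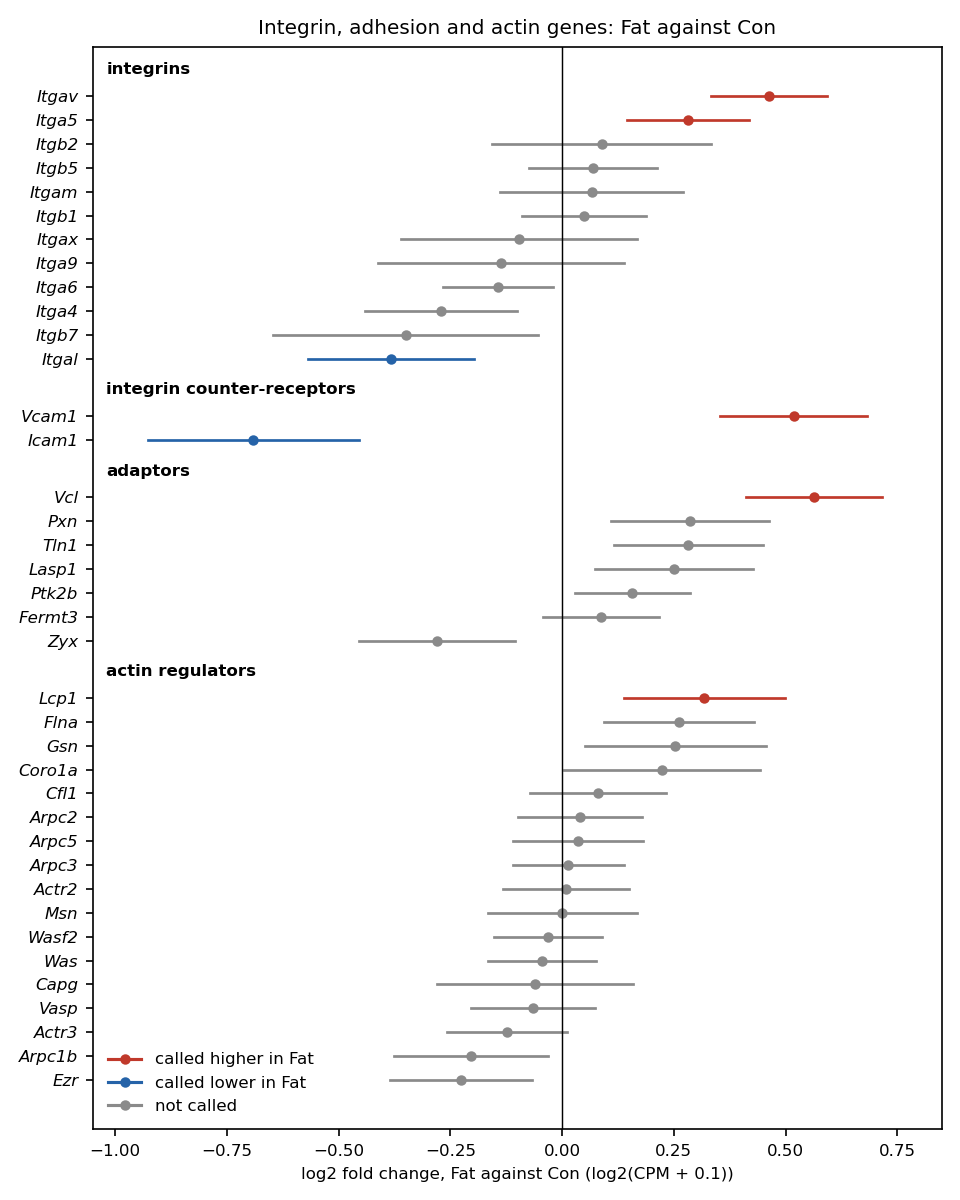
Log2 fold change of Fat against Con for the 38 genes, grouped by role, with points at the estimate and lines for the 95% confidence interval of the limma fit. Coloured genes passed an adjusted p of 0.05: Itgav, Itga5, Vcam1, Vcl and Lcp1 to the right of 0, Itgal and Icam1 to the left.

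Promoters were looked at for the called gene of largest change in 3 of the roles. RefSeq promoters (build GRCm38.p6, matched by symbol, since the submitters' notes name GRCm39 for the values) were found for 32 of the 38 genes. The 250 bases before the start site are printed 5′ to 3′ on the gene's strand, all 3 genes lying on the plus strand, with motif matches in capitals. Positions count back from the start site, with -1 the last base before it. The intervals are chr9:21015690-21015939 for Icam1, chr14:20929148-20929397 for Vcl and chr2:83724147-83724396 for Itgav.
Icam1: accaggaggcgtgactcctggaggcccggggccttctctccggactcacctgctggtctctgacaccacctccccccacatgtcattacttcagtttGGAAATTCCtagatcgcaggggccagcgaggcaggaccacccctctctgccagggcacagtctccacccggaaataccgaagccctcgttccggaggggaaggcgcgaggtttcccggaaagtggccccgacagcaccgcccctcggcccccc
Vcl: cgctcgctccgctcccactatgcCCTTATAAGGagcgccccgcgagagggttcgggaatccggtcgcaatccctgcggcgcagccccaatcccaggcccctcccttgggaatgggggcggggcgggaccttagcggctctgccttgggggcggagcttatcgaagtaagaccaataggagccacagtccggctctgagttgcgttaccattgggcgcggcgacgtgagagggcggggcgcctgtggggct
Itgav: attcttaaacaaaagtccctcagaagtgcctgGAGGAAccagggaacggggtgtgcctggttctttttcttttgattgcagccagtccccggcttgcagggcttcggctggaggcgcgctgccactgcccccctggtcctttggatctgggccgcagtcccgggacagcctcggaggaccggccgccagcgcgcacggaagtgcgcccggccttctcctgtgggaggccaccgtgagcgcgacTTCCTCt
The capitals mark GGAAATTCC, a form of the kB site bound by NF-kB, in Icam1 at -153 to -145; the CArG box bound by serum response factor in Vcl at -227 to -218; and GAGGAA, the core bound by PU.1, in Itgav at -218 to -213 and, on the other strand, at -7 to -2. Each motif was searched on both strands, the CArG box of Vcl reading the same on both, and matches of different motifs did not overlap. The kB form was searched only as the exact sequence GGAAATTCC, the one in the Icam1 window. The CArG box was searched as a pattern. The share of the kB form is thus not that of kB sites in general. Its match in Icam1 is a description and no test. The kB form occurred in 0.286% of 32851 promoter windows of this length and in 1 of the 32 genes, and the CArG box in 1.47% and 1 gene. The PU.1 core occurred in 23.3% of the windows and in 7 of the 32 genes, so its presence in Itgav is common. These matches describe letters and were not tested as binding sites.

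Among the integrins, the 12 subunits moved in both directions. The fibronectin and vitronectin receptor chains Itgav and Itga5 rose, the alpha L chain Itgal fell, and the other 9 did not pass the test. The median log2 fold change of the 12 was -0.02. Both Fat libraries were above both Con libraries for 3 subunits (25%) and below both for 4 (33.3%). Over all tested genes these shares were 29.4% and 26.2%.

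Itgav encodes alpha v, a chain of receptors for vitronectin and for apoptotic-cell bridging proteins. It measured 142 and 135 CPM in Con and 187 and 194 CPM in Fat. Both Fat libraries stood clear of both Con libraries, and the gap was several times the spread within a group. The means were 138 ± 5.12 CPM in Con and 191 ± 4.94 CPM in Fat (mean ± SD, n = 2 each), a rise of 1.38-fold (log2 0.46 ± 0.06 SE, 95% interval 0.33 to 0.59, adjusted p = 0.00514).

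Itga5 encodes alpha 5, which with beta 1 forms the classical fibronectin receptor. Its values were 179 and 187 CPM in Con and 230 and 215 CPM in Fat. The groups did not overlap, although the distance between the nearest libraries was smaller than for Itgav. The mean rose from 183 ± 5.80 to 223 ± 10.5 CPM (SD, n = 2 each), with a log2 fold change of 0.28 ± 0.06 (SE, 95% interval 0.14 to 0.42, adjusted p = 0.0285). Its call was lost without Con replicate 1 (adjusted p = 0.0842), Fat replicate 1 (0.113) or Fat replicate 2 (0.0516).

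Itgal encodes alpha L, which with beta 2 forms LFA-1, the leukocyte receptor for ICAM-1. It was at 246 and 220 CPM in Con and at 190 and 168 CPM in Fat. Con replicate 1 was the highest and Fat replicate 2 the lowest, and the groups did not overlap. The mean fell from 233 ± 18.5 to 179 ± 15.0 CPM (SD, n = 2 each), with a log2 fold change of -0.38 ± 0.08 (SE, 95% interval -0.57 to -0.20, adjusted p = 0.0278). The direction was the same in every alternative, but the call was lost with TPM (adjusted p = 0.0767) and without Con replicate 1 (0.0705) or Fat replicate 2 (0.114).

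The remaining beta 2 integrin genes did not pass the test. Itgb2, the shared beta 2 chain (CD18), had a log2 difference of 0.09 (adjusted p = 0.661). Itgam, the alpha M chain of the complement receptor Mac-1 (CD11b), had 0.07 (0.698), and Itgax, the alpha X chain (CD11c), had -0.10 (0.654). For all 3 genes the Con and Fat libraries overlapped. Itgax was at 698 and 901 CPM in the Con libraries, and its fold change was 0.09 without Con replicate 2 and -0.28 without Con replicate 1. Of Itgam's 75-base stretches, 76.3% are shared with the predicted gene Gm49368, so its level is uncertain where the counting split or dropped shared reads.

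Alpha 4 and beta 7 chains, whose receptors bind VCAM-1 and the gut addressin MAdCAM-1, were lower in both Fat libraries without passing the test. Itga4 was at 146 and 127 CPM in Con and 115 and 111 CPM in Fat (log2 -0.27, adjusted p = 0.0641, and 0.0284 with DESeq2). Itgb7 was at 22.3 and 21 CPM in Con and 19.5 and 14.8 CPM in Fat (log2 -0.35, adjusted p = 0.143), and the wide gap between the Fat libraries gave it the interval that reached -0.65. Itga6, the alpha 6 chain of laminin receptors, was also below in both Fat libraries, at 215 and 220 CPM against 193 and 200 CPM (log2 -0.14, adjusted p = 0.15).

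Itgb1, the beta 1 chain that pairs with alpha 4, alpha 5 and alpha 6, had a log2 difference of 0.05 (95% interval -0.09 to 0.19, adjusted p = 0.673). Itgb5, a beta chain that pairs with alpha v, had 0.07 (-0.08 to 0.21, adjusted p = 0.551). These intervals, from the spread that limma pools over genes, leave room only for small differences between these libraries in either beta chain. Itga9, the alpha 9 chain of a tenascin receptor, was the lowest of the 38 genes at 8.88 CPM on average, with a log2 difference of -0.14 (adjusted p = 0.533).

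**Figure D2:**
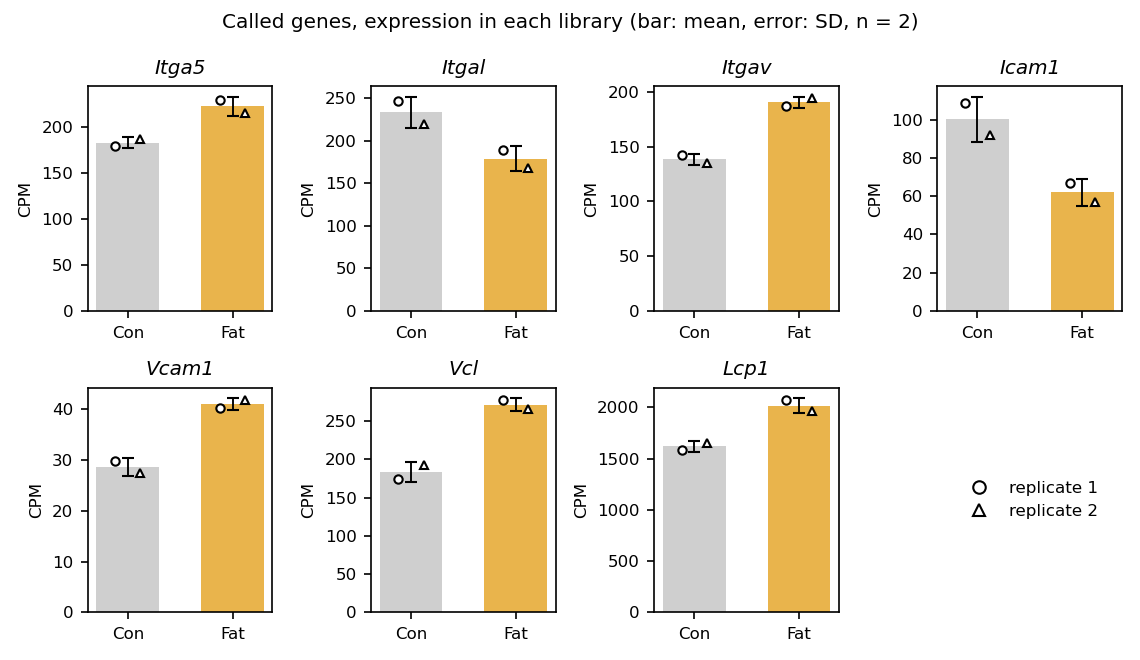
Level in each library of the 7 called genes in CPM, with bars at the group mean, error bars of 1 SD (n = 2) and points for each library. No Con library overlaps a Fat library in any of the 7 panels, as in Vcl at 175 and 193 CPM in Con against 278 and 265 CPM in Fat.

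The pair of counter-receptors went in opposite directions. Icam1 encodes ICAM-1, the cytokine-induced ligand of LFA-1 and Mac-1. It was at 109 and 92.1 CPM in Con and at 67.1 and 57.1 CPM in Fat, so every Fat value was below every Con value. The mean fell from 100.4 ± 11.7 to 62.1 ± 7.03 CPM (SD, n = 2 each), to 0.619 times the Con level (log2 -0.69 ± 0.10 SE, 95% interval -0.93 to -0.46, adjusted p = 0.00919). The kB form in the printed Icam1 window was not tested as a cause of the fall.

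Vcam1 encodes VCAM-1, the ligand of alpha 4 integrins, which is also carried by some tissue macrophages. Its values were 29.8 and 27.3 CPM in Con and 40.1 and 41.7 CPM in Fat. The Fat libraries agreed closely and lay above both Con libraries. The mean rose from 28.6 ± 1.76 to 40.9 ± 1.15 CPM (SD, n = 2 each), 1.43-fold (log2 0.52 ± 0.07 SE, adjusted p = 0.00747). Per gene length, Icam1 was the more abundant in both media, with mean levels of 85.7 TPM in Con and 54.2 in Fat against 18.2 and 26.7 TPM for Vcam1. Both proteins are also carried by endothelium, whose summed markers were at 40.9 and 40.2 CPM in Con and at 33.4 and 36.4 CPM in Fat. That sum was mostly Vwf, called lower (log2 -0.34), while the other 2 tested markers, Pecam1 (0.47, adjusted p = 0.237) and Kdr (0.28, 0.620), were higher in both Fat libraries without a call. Their part in the values of Icam1 and Vcam1 was not tested.

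Of the 7 adaptors, only Vcl passed the test, yet none of the 7 had overlapping groups. In 6 of them both Fat libraries were above both Con libraries, as in 29.4% of all tested genes, and in Zyx both were below, as in 26.2%. Their median log2 fold change was 0.25, beside 0.01 over all tested genes. At an unadjusted p under 0.05, 5 were higher and 1 lower, beside 11.8% and 12.4% of all tested genes. The median was 0.15 without Con replicate 1 and 0.35 without Con replicate 2.

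Vcl encodes vinculin, which binds talin and actin and strengthens adhesions under load. It stood at 175 and 193 CPM in Con and at 278 and 265 CPM in Fat. All Fat values were far above the Con values, relative to the spread within each group. The mean rose from 184 ± 12.8 to 272 ± 8.52 CPM (SD, n = 2 each), 1.48-fold (log2 0.56 ± 0.06 SE, 95% interval 0.41 to 0.71, adjusted p = 0.00468). Of its 75-base stretches, 24.2% also occur in transcripts of the overlapping neighbour Ap3m1. Ap3m1 itself was at 48.0 ± 2.31 CPM in Con and 48.1 ± 5.03 CPM in Fat (SD, n = 2 each, adjusted p = 0.990). The CArG box in the printed Vcl window was not tested as a cause of the rise.

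The partners of vinculin came close to the threshold. Tln1, which encodes talin 1, the activator that binds integrin beta tails, was at 471 and 530 CPM in Con and 606 and 610 CPM in Fat (log2 0.28, 95% interval 0.12 to 0.45, adjusted p = 0.0518). Pxn, the scaffold paxillin, was at 109 and 121 CPM in Con and 133 and 148 CPM in Fat (log2 0.29, adjusted p = 0.0605). Lasp1, an actin-binding protein of adhesions and podosomes, was at 426 and 489 CPM against 540 and 545 CPM (log2 0.25, adjusted p = 0.0894). None of these 3 was called in the limma fit described above. DESeq2 on the recovered reads called all 3 (adjusted p = 0.0110, 0.0300 and 0.0495), as did limma without Con replicate 2 (0.010, 0.0218 and 0.0121).

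Ptk2b, the adhesion kinase Pyk2, had a log2 difference of 0.16 (adjusted p = 0.131), and Fermt3, which encodes the leukocyte kindlin, had 0.09 (adjusted p = 0.392). The difference was smallest for kindlin, whose 95% interval ran from -0.04 to 0.22. Zyx, which encodes zyxin, a protein of mature and stretched adhesions, was at 385 and 396 CPM in Con and 345 and 300 CPM in Fat. Its sign was opposite to that of the other 6 adaptors (log2 -0.28, 95% interval -0.46 to -0.11), and it too missed the threshold (adjusted p = 0.0625), though DESeq2 called it lower (0.0170).

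Of the 17 actin regulators only Lcp1 was called (5.88%, beside 9.0% of all tested genes). The median log2 fold change was 0.01, the same as over all tested genes to 2 decimals. Both Fat libraries were above both Con libraries for 5 genes and below both for 5, 29.4% each. Over all tested genes these shares were 29.4% and 26.2%. For 7 genes the groups overlapped. At an unadjusted p under 0.05, 4 were higher and 2 lower, beside 11.8% and 12.4% of all tested genes.

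Lcp1 encodes L-plastin, the leukocyte protein that bundles actin filaments. It measured 1580 and 1657 CPM in Con and 2068 and 1967 CPM in Fat. The groups did not overlap, and the difference was larger than the spread within either. The mean rose from 1618 ± 54.3 to 2018 ± 71.3 CPM (SD, n = 2 each), 1.25-fold (log2 0.32 ± 0.08 SE, 95% interval 0.14 to 0.50, adjusted p = 0.0455). The call lay close to the threshold and was lost with no filter (0.0893), with median ratio scaling (0.0557), and without Con replicate 1 (0.0979), Fat replicate 1 (0.164) or Fat replicate 2 (0.119).

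The other proteins that link or cut filaments did not pass the test. Flna, filamin A, which crosslinks actin and binds integrin tails, was at 958 and 1041 CPM in Con and 1181 and 1213 CPM in Fat (log2 0.26, adjusted p = 0.0679). Gsn, gelsolin, which severs and caps filaments, had a log2 difference of 0.25 (adjusted p = 0.123), and Coro1a, the leukocyte coronin, had 0.22 (adjusted p = 0.201). Both were higher in each Fat library than in each Con library. The gap was narrow for Coro1a, at 155 and 184 CPM in Con and 185 and 210 CPM in Fat. Capg, a capping protein of macrophages, had -0.06 and Cfl1, the severing protein cofilin 1, had 0.08, with adjusted p of 0.746 and 0.506.

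None of the listed genes of branched actin passed the test. The 6 listed parts of the Arp2/3 complex, which nucleates the side branches, ran from -0.20 to 0.04 on the log2 scale. Arpc1b had -0.20 (adjusted p = 0.144), Actr3 -0.12 (0.246), Arpc2 0.04 (0.732), Arpc5 0.04 (0.779), Arpc3 0.01 (0.914) and Actr2 0.01 (0.954). The activators of the complex were close to 0 as well, with -0.05 for Was, the haematopoietic WASP (adjusted p = 0.643), and -0.03 for Wasf2, the WAVE2 protein (adjusted p = 0.755). Vasp, which elongates filaments, had -0.07 (adjusted p = 0.552). Actr3 and Arpc1b share 53.9% and 28.3% of their stretches with other genes, and Cfl1 shares 23.2%.

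Neither linker between actin and the membrane passed the test. Ezr, ezrin, was at 40.3 and 43.7 CPM in Con and 36.7 and 35.1 CPM in Fat, with no overlap but no call (log2 -0.23, adjusted p = 0.0887). Msn, moesin, was at 1071 and 1070 CPM in Con and at 1117 and 1027 CPM in Fat, on both sides of Con (adjusted p = 0.997). Per gene length, moesin was far more abundant than ezrin in these cells, at 611 TPM against 27.8 TPM on average.

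Levels per gene length spanned a wide range among the 38 genes, from 2.74 TPM for Itga9 to 1867 TPM for Itgb2. The 4 highest in TPM were Itgb2, Cfl1, Itgam and Capg, and none of them was called. Itgb2 was at 1653 and 1931 TPM in Con and 1998 and 1887 TPM in Fat. Con replicate 1 was the lowest, and the groups overlapped. Cfl1 was at 1387 and 1423 TPM in Con and 1559 and 1479 TPM in Fat, higher in both Fat libraries by a margin comparable to the spread within Fat. Itgam was at 1214 and 1254 TPM in Con and 1368 and 1275 TPM in Fat, with no overlap in TPM where the CPM values overlapped. Capg was at 1169 and 1374 TPM in Con and 1229 and 1256 TPM in Fat, so that both Fat values fell between the Con values. The called integrins sat well below the beta 2 chains, at a mean of 102 TPM for Itga5, 86.4 TPM for Itgal and 51.2 TPM for Itgav.

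**Figure D3:**
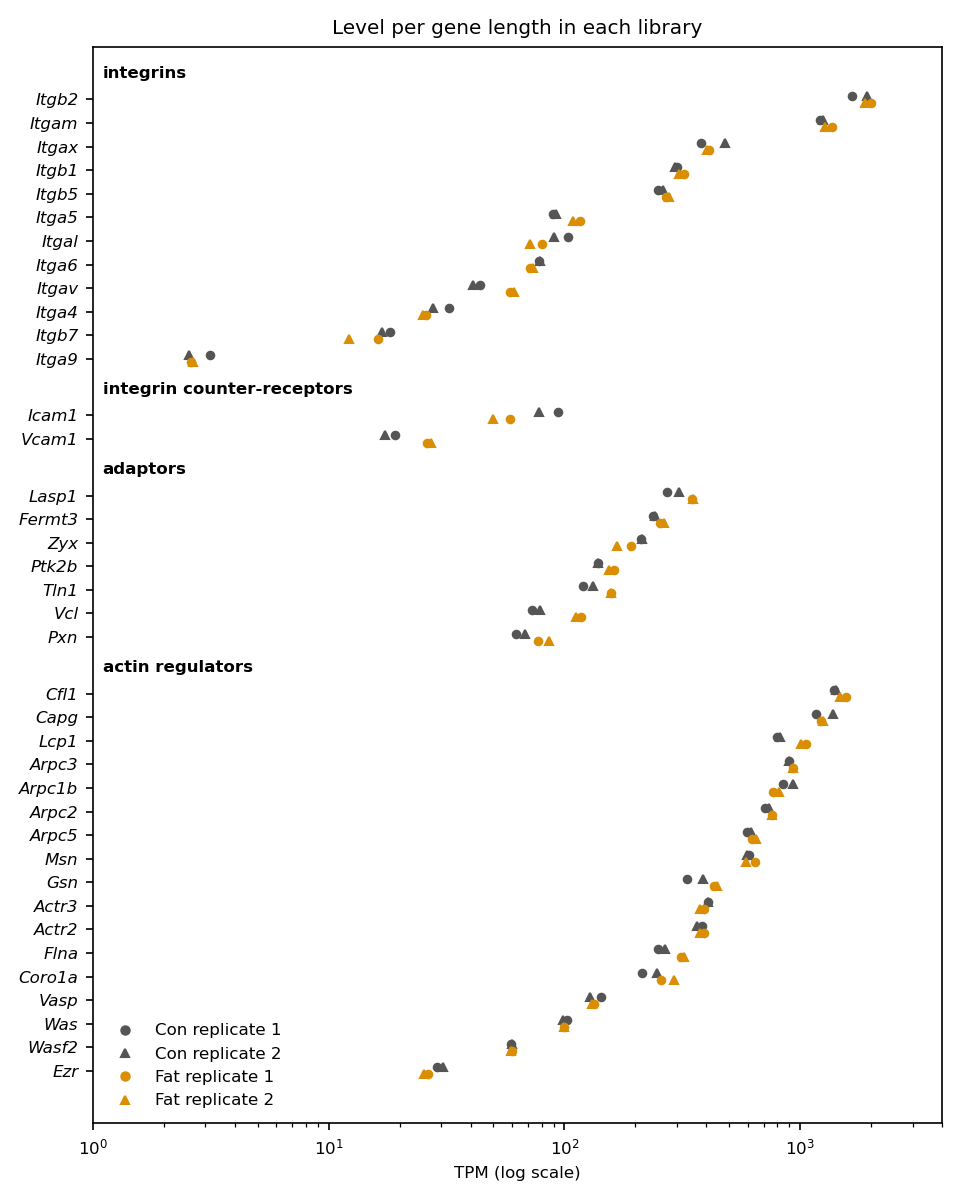
Level per gene length of each gene in each library, in TPM on a log axis, grouped by role and ordered by mean level. Grey points are Con and orange points are Fat, and the groups lie close together for most genes, with Itgb2 (1867 TPM on average) highest and Itga9 (2.74 TPM) lowest.

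A wider set of 131 genes in 7 lists of the same pathways had calls in both directions, with 14 higher and 5 lower among 122 tested (15.6%, against 9.0% of all tested genes) and a median log2 fold change of 0.06. These lists too were chosen with earlier results of these data known, so the shares called in them are descriptions and not tests. Vtn, Wasf3 and Diaph1 of these lists were not analysed here. Of 10 tested other integrin subunits, Itgad, the alpha D partner of beta 2, rose from 3.6 ± 0.415 to 6.41 ± 0.298 CPM (SD, n = 2 each, log2 0.82, adjusted p = 0.0144). Itgb3, the beta chain of the vitronectin receptor with alpha v, rose from 22.0 ± 0.135 to 28.2 ± 0.569 CPM (log2 0.36, adjusted p = 0.0207), in the same direction as Itgav. Beta 3 is also a platelet integrin, and the platelet markers Pf4 (log2 0.46, adjusted p = 0.0195) and Ppbp (1.15, 0.0308) were called higher as well. Of the 4 platelet markers tested, 3 were above Con in both Fat libraries, as in 29.4% of all tested genes. The other (log2 -0.30) overlapped. Their part in the value of Itgb3 was not tested. The median of the 10 subunits was 0.31, over genes of which none exceeded 9.53 TPM.

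Of 14 tested integrin ligands and partners, 2 rose, Adam8 (log2 0.53, adjusted p = 0.0160), a membrane protease of leukocytes, and Col4a1 (0.29, 0.0481), a basement membrane collagen. Among 24 genes of integrin activation and adhesion signalling, Tes (log2 0.42, adjusted p = 0.0154), an adhesion protein that binds zyxin, and Syk (0.31, 0.0268), a kinase downstream of integrins and Fc receptors, rose and the Src-family kinase Fgr fell (-0.41, 0.0292). Among 16 podosome genes, the formin Inf2 rose (log2 0.54, adjusted p = 0.00692) and the membrane protease Mmp14 fell (-0.43, 0.0198). Of 14 genes of the Arp2/3 and WAVE complexes, Abi3 fell (log2 -0.32, adjusted p = 0.0331), though it shares 62.7% of its stretches with other genes. The shares called in these lists, in this order, were 14.3%, 12.5%, 12.5% and 7.14%, beside 9.0% of all tested genes. Adam8 and Inf2 were called in 12 of 13 alternative fits, Tes and Mmp14 in 11 and Syk in 10. Fgr was called in 8, and Col4a1 and Abi3 in 7.

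The actin-related list held the gene of smallest adjusted p. Of 29 genes for actin itself and for monomer binding, capping and bundling, 4 rose and 2 fell (20.7%, beside 9.0% of all tested genes). Dstn, destrin, a relative of cofilin, rose from 213 ± 10.1 to 337 ± 10.6 CPM (SD, n = 2 each, log2 0.66, adjusted p = 0.00297), whereas Cfl1 did not pass the test. Actn1, an alpha-actinin that binds vinculin, rose (log2 0.44, adjusted p = 0.0128), as did Wdr1 (0.27, 0.0438), which aids cofilin, and Actg1 (0.48, 0.0172), whose stretches are 55.3% shared. The fallen genes were Marcksl1 (-0.59, 0.0159) and Marcks (-0.33, 0.0351), which tie actin to the membrane. Dstn and Actn1 were called in 12 of 13 alternative fits, Actg1 and Marcksl1 in 11, Marcks in 8 and Wdr1 in 7. Actb was at 2685 and 2965 CPM in Con and 3530 and 3729 CPM in Fat without passing (log2 0.36, adjusted p = 0.0597).

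**Figure D4:**
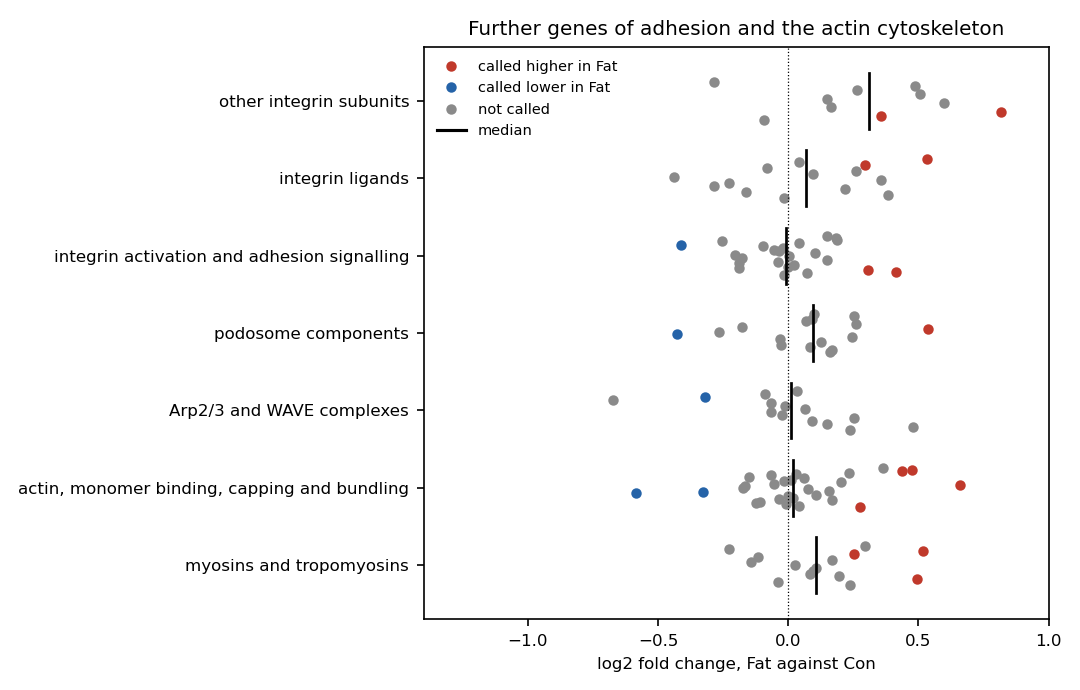
Log2 fold change of Fat against Con for the tested genes of 7 further lists, each point a gene and each black line a list's median. Coloured points passed an adjusted p of 0.05, 14 to the right of 0 and 5 to the left, of 122 genes.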

How the data were processed

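Mouse macrophage libraries, 2 Con and 2 Fat, were grouped by their titles. The values deposited by the authors were CPM, scaled by library size and by factors equal to edgeR's TMM, and TPM deposited by the authors, also scaled for gene length. The submitters' notes name GRCm39 and the study names edgeR. The aligner, annotation, counting and strand setting are not given in the sources used here. Reads recovered from CPM were whole in 100% of values (tolerance 0.001 reads), 1 read being 0.0244 to 0.0295 CPM.

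limma 3.58.1 (R 4.3.3) was fitted to log2(CPM + 0.1) with a mean-variance trend over all 12470 tested genes, two-sided, with Benjamini-Hochberg adjustment. Fold changes on this scale understate those of low genes. The same genes were refitted with 1 CPM as pseudocount, without the filter, with a filter at 5 CPM on average, on TPM, with median ratio scaling, with a replicate block, without the trend, without each library in turn, and with edgeR 4.0.16 and DESeq2 1.42.0 on the recovered reads. The scripts were tested on simulated data. The members and lists were chosen with earlier results of these data known. All 38 members are named, with values in every library for the called genes and the 4 highest in TPM, and from each wider list the called genes, up to 4 in each direction. A further list fixed with these is not reported here. Per-library values of other members and of Actb were added after they were seen. Shared sequence is the share of 75-base stretches of GENCODE M21 transcripts, every 5 bases, that BWA 0.7.19 placed in another gene with at most 2 mismatches. Overlaps of genes on opposite strands cannot be told apart without the strand setting. Promoter sequences and their starts are from RefSeq.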

Additional observations from a re-analysis of the deposited data

How the results depend on the processing

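Itgav, Icam1, Vcam1 and Vcl were called in 12 of 13 alternatives, Itga5 and Itgal in 9 and Lcp1 in 7. The 19 called genes of the wider lists, like these 7, all lost their call without the mean-variance trend. The number called higher (5) became 11 with the replicate block, 9 with DESeq2 and 3 to 11 with 1 library left out, and the number called lower (2) became 1 with TPM values, 7 with the block, 4 with DESeq2 and 1 to 4 with 1 library left out. The counts higher and lower were 3 and 1 without Con replicate 1, 11 and 3 without Con replicate 2, 4 and 4 without Fat replicate 1, and 3 and 1 without Fat replicate 2, where the lone library of a group was assumed to vary like the other group. Without the mean-variance trend limma called 0 higher and 0 lower, against 9 and 5 at an unadjusted p under 0.05 in that fit and 5 and 2 by edgeR. Over all tested genes limma called 1122, 2520 with the block, 31 without the trend, 666 without Con replicate 1 and 529 without Fat replicate 2. The deviations of libraries with the same replicate number correlated at 0.20, but nothing else pairs them, so the block is given as an alternative. The median log2 fold change of the integrins was -0.050 to 0.068 with 1 library left out, that of the adaptors 0.15 to 0.35, and that of the actin regulators -0.019 to 0.028, and 0.041 with TPM values.

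Signs turned only in values near 0 or in genes that varied within a group. Actr2 was -0.000211 and Msn -0.00818 with median ratio scaling, and Msn was -0.00284 with edgeR and -0.00639 with DESeq2. With 1 library left out, Itgax ran from -0.28 to 0.087, Itgb2 from -0.038 to 0.21, Arpc3 from -0.000557 to 0.028, Arpc5 from -0.00762 to 0.078, Actr2 from -0.019 to 0.036, Msn from -0.060 to 0.061 and Capg from -0.19 to 0.070. Over the 38 members and the called genes of the wider lists, 628 values kept direction and side of the threshold, 72 lost it, 29 gained it and 12 changed sign. Those wider genes were all called in the main fit, so they could lose a call but not gain one. The cause was not tested. Each group had 2 libraries, and all 38 genes had at least 312 reads in each library.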

Other observations

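The make-up of the integrin alpha chains can be given as shares of summed TPM, as a description with no test. Among the partners of beta 2, Itgam held 71.5% and 68.7% in Con and 73.4% and 72.7% in Fat, Itgax 22.3% and 26.3% against 22.1% and 23.0%, and Itgal 6.08% and 4.96% against 4.32% and 4.07%. Itgad was a trace in every library, at 0.126% and 0.0980% in Con and 0.198% and 0.197% in Fat. Itgam's share carries the uncertainty of its shared sequence.

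Among the listed partners of beta 1, Itga5 held 36.2% and 38% in Con and 42.4% and 40.2% in Fat, and Itgav 17.8% and 17.0% against 21.4% and 22.5%. Itga6 held 31.6% and 32.5% in Con and 25.9% and 27.2% in Fat, and Itga4 13.1% and 11.5% against 9.39% and 9.23%. For these 4 chains the Con and Fat libraries did not overlap. The fibronectin and vitronectin receptor chains took a larger share in Fat and the laminin and VCAM-1 receptor chains a smaller one. Itga9 held 1.27% and 1.06% in Con and 0.949% and 0.979% in Fat, without overlap, although its TPM values overlapped. The summed TPM was 248 and 242 in Con and 275 and 272 in Fat, so a share can fall where the chain's own level does not. The shares of a family are not independent, since they sum to a fixed total.

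Of 15 myosins and tropomyosins, 3 rose: Myh9, the heavy chain of non-muscle myosin, from 495 ± 28.3 to 709 ± 6.85 CPM (log2 0.52, adjusted p = 0.00553), the tropomyosin Tpm2 (0.49, adjusted p = 0.00978) and the light chain Myl12a (0.25, adjusted p = 0.0368), which shares 37.7% of its stretches with other genes. The share called was 20%, beside 9.0% of all tested genes. Myh9 and Tpm2 were called in 12 of 13 alternative fits and Myl12a in 8.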
